A study of Mus musculus with 6 samples.

Results

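The Wnt pathway module comprised 53 protein-coding genes of the 22196 protein-coding genes in the deposited table, picked out by name: every Wnt, Fzd, Sfrp and Dkk gene carrying a number, together with Wif1, Axin1, Axin2, Lef1, Tcf7, Nkd1, Nkd2, Sp5, Rnf43, Znrf3, Lgr5, Notum, Ctnnb1, Apc, Lrp5 and Lrp6. The names were chosen with earlier results of these data known. By role these were 19 Wnt ligands, 12 Frizzled receptors and LRP co-receptors, 9 secreted inhibitors, 5 intracellular core components and 8 targets and feedback regulators. They were followed in bulk RNA-seq of 3 medulloblastomas, labelled Tumor, and 3 control cerebella, labelled WT. The Tumor mice carried Math1-Cre and SmoM2.c/wt. Math1 (Atoh1) is switched on in the granule neuron progenitors of the cerebellum and other rhombic lip derivatives, and SmoM2 is a Smoothened mutant that activates Hedgehog signalling without ligand, so the transgene acts in that lineage and not in every cell of the cerebellum. The WT mice carried SmoM2.c/wt without Cre, so the allele itself was common to both groups. All 6 samples were female, C57BL/6 and at postnatal day 35. The labels do not say whether the libraries of a group came from separate mice, so the p-values measure the spread between these libraries, which may be technical.

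Wnt proteins are secreted lipid-modified ligands that bind Frizzled receptors together with the co-receptors LRP5 and LRP6. In the canonical branch this stops the destruction complex of Axin, Apc and kinases from marking beta-catenin (Ctnnb1) for degradation, and beta-catenin then acts with the DNA-binding factors of the TCF/LEF family. Several of its target genes, such as Axin2, Nkd1, Notum, Rnf43 and Znrf3, encode proteins that damp the pathway again. In the developing hindbrain Wnt1 maintains the midbrain-hindbrain boundary, and in the postnatal cerebellum granule neurons release Wnt7a, which acts on the terminals of mossy fibres. In human medulloblastoma, activating CTNNB1 mutations define a subgroup of their own, separate from the Sonic hedgehog subgroup that SmoM2 mice model, and SFRP1 is used as a marker of the Sonic hedgehog subgroup.

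Values are given as normalized counts, which are reads divided by 1 size factor per library. The libraries held 44902217 to 69550200 reads, and 3 reads, taken as the floor of detection, equalled 2.17 to 3.57 normalized counts. Differences are log2 fold changes of Tumor over WT on the log2(normalized count + 1) scale with their standard error, and a gene passed the test, or was called, where limma gave it a p under 0.05 after Benjamini-Hochberg adjustment over the 22117 genes tested. Calls were common over the whole table: 30.6% of all genes tested were called higher and 31.5% lower in Tumor, and 7.95% were called higher and 10.1% lower by at least 4-fold. These shares include non-coding genes, while every member is protein-coding. Of the 16755 protein-coding genes tested, with adjustment over these alone, 5813 were called higher and 6018 lower. Both are larger shares than those of all genes, so the contrasts below with all genes do not compare like with like. Marker genes went with the labels. Atoh1, the transcription factor of granule neuron progenitors, averaged 4361 ± 422 in Tumor and 5.88 ± 5.41 in WT (SD, n = 3 each), and Gli1, a Hedgehog target, 4923 ± 1489 in Tumor and 440.2 ± 21.1 in WT. The summed granule neuron progenitor markers were at 157481 to 171860 in Tumor and 54548 to 62218 in WT, with 7 of 8 called higher. The marker not called, Zic1, averaged 55734 ± 3309 in Tumor and 54195 ± 4332 in WT. It made up most of the WT sum, so that sum is no measure of the other markers in WT. Markers of other cells moved in both directions, with more lists lower than higher. All 8 oligodendrocyte markers were called lower, with sums of 63522 to 161899 in Tumor and 683392 to 836166 in WT, as were all 8 GABAergic interneuron markers. Called lower were also 8 of 10 Bergmann glia and astrocyte markers (1 higher) and 6 of 7 ependymal markers (0 higher). The same held for 6 of 8 pericyte and smooth muscle markers (1 higher) and 5 of 8 of unipolar brush cells and excitatory nuclear neurons (2 higher). The 8 Purkinje cell markers, all called lower, summed to 42325 to 80882 in Tumor and 501471 to 507257 in WT, and the 8 mature granule neuron markers, 7 of them lower and 1 higher, to 39005 to 50875 in Tumor and 253775 to 286907 in WT. The 8 microglia and macrophage markers, 7 of them called higher, summed to 17132 to 18323 in Tumor and 5193 to 6332 in WT, and the 6 oligodendrocyte precursor markers, 4 higher and 1 lower, to 29669 to 33484 in Tumor and 7981 to 9057 in WT. In bulk tissue fewer cells of a type and less RNA per cell cannot be told apart, and the part of these shifts in the results on Wnt genes was not tested.

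The module did not move in 1 direction. Of the 53 genes, 48 passed the filter on low values, and of these 17 (35.4%) were called higher and 16 (33.3%) lower in Tumor, while 15 did not pass the test. These shares lie close to the 30.6% higher and 31.5% lower of all genes tested, and the median log2 fold change of the 48 was 0.02, against -0.02 over all genes. By a fitted change of at least 4-fold, 6 (12.5%) were higher and 7 (14.6%) lower, against 7.95% higher and 10.1% lower of all genes tested. The 7 include Wnt10a, which had no read in the Tumor libraries and whose lower bound, given below, does not reach 4-fold. The 3 Tumor libraries all lay above the 3 WT libraries for 19 members and all below them for 17. The same count was not made over all genes, so these numbers cannot be read as a trait of the module. Wnt10a and Wnt2 passed the filter through the WT libraries alone, so they could only come out lower. Among the 46 tested members with reads in both groups, 17 (37.0%) were higher and 14 (30.4%) lower, 6 of these by at least 4-fold, and the median was 0.10. Wnt10b and Wnt11 remain among the 14, though too few of their Tumor values exceeded 1 to pass the filter without the WT libraries. The 5 members that did not pass were Wnt1, Wnt3a and Dkk4, which had no read in any library, Wnt8a, with 0 reads over the Tumor libraries and 1 over the WT libraries, and Dkk1, with 1 read over the Tumor libraries and 5 over the WT libraries. By role, ligands were more often called lower, and receptors and core components more often higher, as the plot of the members by role shows.

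**Figure D1:**
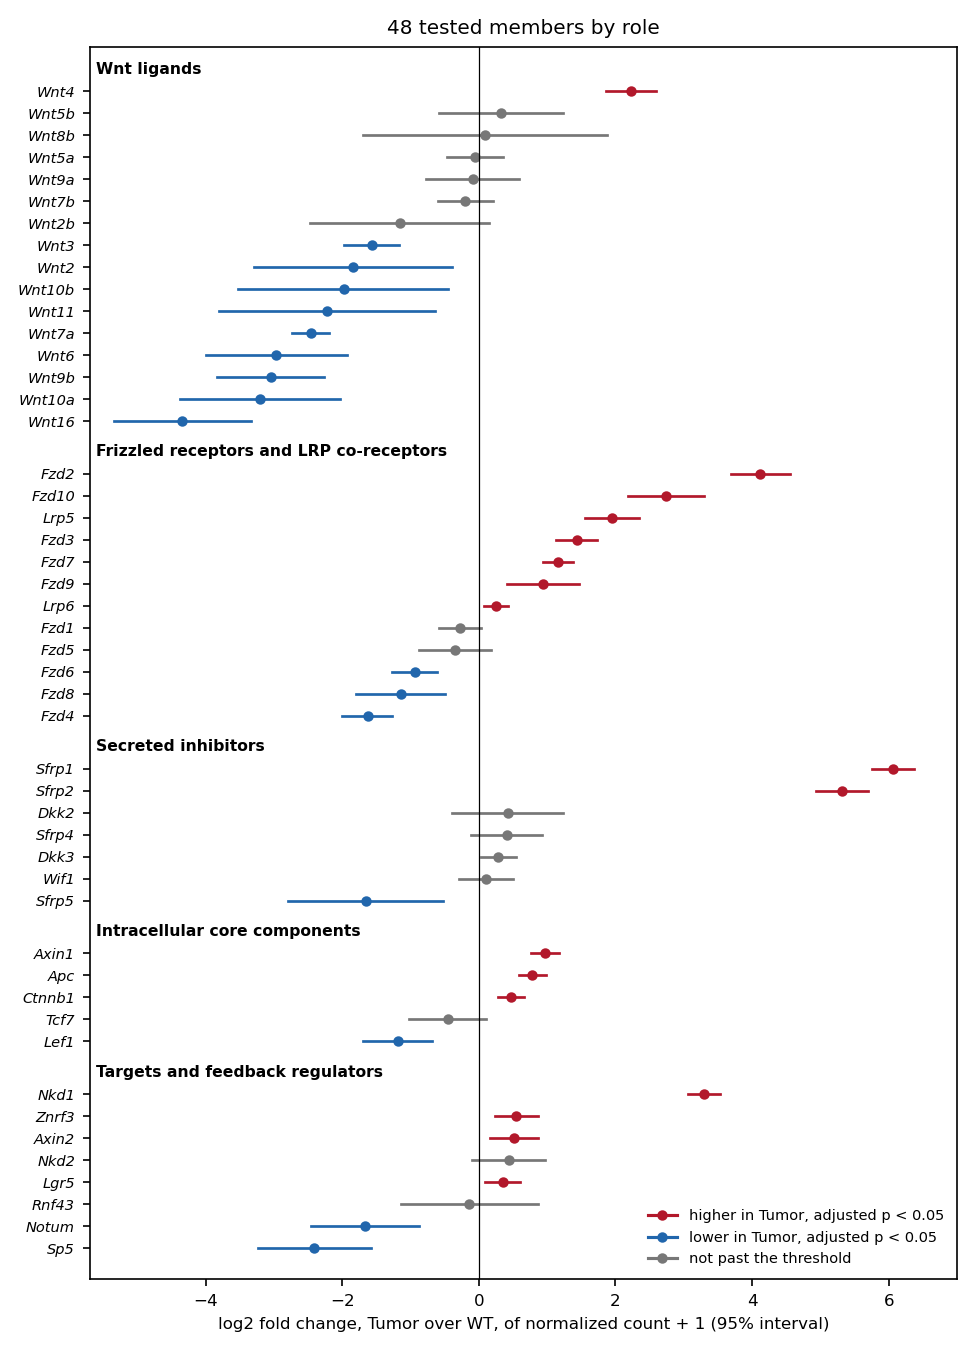
Log2 fold change of Tumor over WT (x axis, of normalized count + 1) for the 48 members tested, grouped by role, with points for limma estimates and bars for 95% intervals. Sfrp1 and Sfrp2 stand farthest to the right at 6.06 and 5.32, Wnt4 is the only ligand called higher among the 16 ligands tested, and Wnt16 stands farthest to the left at -4.34.

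Since several members are themselves targets of TCF/LEF factors, their promoter sequences were read for that motif, and for the motif of the GLI factors on which Hedgehog signalling acts. RefSeq promoter windows on GRCm38.p6, reaching from 250 bases before to 50 bases after a start site, were matched by symbol for 34 of the 53 members, which have 43 such windows. The TCF/LEF motif was searched on both strands as CTTTGAT or CTTTGAA. It was present in 4 windows (9.3%), those of Sp5, Wnt5b, Wnt11 and Dkk1, against 8.65% of the 32851 windows in the table. Of these genes Sp5 and Wnt11 were called lower, Wnt5b did not pass the test and Dkk1 was not tested. The Wnt11 call rests on 5 reads over the Tumor libraries and 25 over the WT libraries, and DESeq2 did not make it (adjusted p = 0.0546). The GLI motif GGGTGGTC was present in 0 member windows, against 0.807% of all windows. The member windows were GC-rich, with a median of 66.3% G and C and 24 CpG dinucleotides, against 52.7% and 7 over all windows. The full set of windows, of 27025 gene symbols, was not limited to protein-coding genes. These contrasts therefore cannot be read as a trait of the module. The windows of Sp5 and Wnt11 are shown as the motif-bearing windows of 2 members called lower, and those of Sfrp2 and Wnt7a as windows without either motif in a gene that rose and a gene that fell. All are written 5′ to 3′ on the strand of the gene with the motif in capitals. Sp5 (chr2:70474673-70474972, plus strand) holds CTTTGAT starting 104 bases before the start site, and Wnt11 (chr7:98834862-98835161, plus strand) holds it on the opposite strand, starting 51 bases before the start site. Sfrp2 lies at chr3:83766071-83766370 on the plus strand and Wnt7a at chr6:91411304-91411603 on the minus strand.
Sp5: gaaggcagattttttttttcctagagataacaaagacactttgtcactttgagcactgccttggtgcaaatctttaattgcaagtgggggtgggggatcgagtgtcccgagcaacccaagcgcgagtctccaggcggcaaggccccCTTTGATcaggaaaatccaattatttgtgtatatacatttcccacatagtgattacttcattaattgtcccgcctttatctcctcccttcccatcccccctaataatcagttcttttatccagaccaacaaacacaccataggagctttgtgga
Wnt11: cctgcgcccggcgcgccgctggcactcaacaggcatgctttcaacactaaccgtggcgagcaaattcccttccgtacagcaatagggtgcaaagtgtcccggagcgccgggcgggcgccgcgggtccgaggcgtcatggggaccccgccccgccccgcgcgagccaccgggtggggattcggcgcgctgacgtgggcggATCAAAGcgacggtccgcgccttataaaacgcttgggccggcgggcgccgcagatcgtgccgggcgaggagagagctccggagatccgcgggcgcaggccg
Sfrp2: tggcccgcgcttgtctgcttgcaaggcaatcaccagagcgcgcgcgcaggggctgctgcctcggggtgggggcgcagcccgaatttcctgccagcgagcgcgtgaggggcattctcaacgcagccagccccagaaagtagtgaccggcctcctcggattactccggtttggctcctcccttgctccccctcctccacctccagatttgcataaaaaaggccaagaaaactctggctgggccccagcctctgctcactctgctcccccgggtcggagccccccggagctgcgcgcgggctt
Wnt7a: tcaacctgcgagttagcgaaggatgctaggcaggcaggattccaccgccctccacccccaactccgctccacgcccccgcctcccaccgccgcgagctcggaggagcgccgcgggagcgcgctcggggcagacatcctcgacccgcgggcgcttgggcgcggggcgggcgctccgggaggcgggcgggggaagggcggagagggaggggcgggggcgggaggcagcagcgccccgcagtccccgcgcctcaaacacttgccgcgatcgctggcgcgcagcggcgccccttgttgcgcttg
A match is a run of letters and not a measured binding site, and no match says only that these letters are not in this window.

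The Wnt ligands were more often lower than higher in Tumor. Of the 16 tested, 9 (56.2%, against 31.5% of all genes) were called lower and 1 (6.2%, against 30.6%) was called higher. Without Wnt10a and Wnt2, which had no read in the Tumor libraries, 7 of 14 (50%, against 31.5% of all genes) were called lower, 5 of them by at least 4-fold, and the median log2 fold change was -1.36, against -0.02 over all genes. The 7 still include Wnt10b and Wnt11, which passed the filter only with their WT values, so this share still leans toward lower. The ligand with the highest level per length in WT was Wnt7a (chr6:91363981-91411363), the granule neuron ligand named above. It had 438, 517 and 578 normalized counts in Tumor libraries 1 to 3, against 2697, 2760 and 2960 in WT libraries 1 to 3. The groups did not overlap, and Wnt7a was 5.52-fold lower in Tumor (log2 fold change -2.46 ± 0.12, adjusted p = 9.74e-08). Wnt3, a ligand that Purkinje cells make in the mouse, averaged 191 ± 41.8 in Tumor and 561 ± 25.7 in WT (SD, n = 3 each), a log2 fold change of -1.57 ± 0.18 with an adjusted p of 3.39e-05.

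Wnt4 (chr4:137277489-137299726), a ligand best known from the kidney and the female reproductive tract, went the other way. It had 711, 830 and 637 normalized counts in Tumor libraries 1 to 3, against 133, 169 and 160 in WT libraries 1 to 3. Every Tumor library was above every WT library, and the log2 fold change was 2.23 ± 0.16 (4.68-fold, adjusted p = 1.56e-06).

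The remaining ligands that were called were lower. Wnt16 averaged 3.43 ± 1.39 in Tumor, close to the floor, and 89.2 ± 33.9 in WT. Wnt9b, which starts tubule formation in the kidney, averaged 9.91 ± 2.65 in Tumor and 87.7 ± 6.82 in WT, and Wnt6 averaged 7.49 ± 1.64 in Tumor and 70.1 ± 31.0 in WT. Their log2 fold changes were -4.34 ± 0.45, -3.05 ± 0.35 and -2.97 ± 0.46, with adjusted p values of 1.74e-05, 3.48e-05 and 3.19e-04, and no Tumor library reached a WT library for any of them. Wnt10a, a ligand of tooth and skin appendage development, had no read in the Tumor libraries and 22 reads over the WT libraries, so that it was at least 3.11-fold lower in Tumor when each Tumor library is set at its floor of 3 counts. Wnt10b, Wnt11 and Wnt2 were called lower on 5, 5 and 0 reads over the Tumor libraries, against 22, 25 and 8 over the WT libraries. Their adjusted p values were 0.0287, 0.0194 and 0.0308, and each lost the call when Tumor library 1, Tumor library 3 or WT library 1 was left out, with adjusted p between 0.0513 and 0.105. WT library 3 also decided Wnt10b and Wnt11 (0.0836 and 0.0545 without it), and Tumor library 2 and WT library 2 decided Wnt2 (0.0577 and 0.112).

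Wnt5a, a ligand of the beta-catenin-independent branch, averaged 449 ± 108 in Tumor and 456 ± 13.1 in WT, a log2 fold change of -0.05 with a 95% interval of -0.47 to 0.36. Wnt7b, a relative of Wnt7a that also guides brain vessel growth, averaged 201 ± 22.1 in Tumor and 230 ± 28.7 in WT (interval -0.60 to 0.20). The other ligands that did not pass the test were Wnt2b, Wnt5b, Wnt8b and Wnt9a, with adjusted p between 0.112 and 0.927. Wnt2b was lower in every Tumor library, at 10.5 ± 6.82 in Tumor and 20.5 ± 1.32 in WT.

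Several of these genes are chromosomal neighbours. Wnt6 and Wnt10a lie 6193 bases apart on chromosome 1 and were both called lower, as were Wnt9b and Wnt3, which lie 24328 bases apart on chromosome 11. Wnt10a, without a read in the Tumor libraries, could only come out lower, and 56.2% of all tested ligands were called lower. In the neighbouring pairs of Wnt9a with Wnt3a (16175 bases, chromosome 11) and Wnt10b with Wnt1 (11706 bases, chromosome 15), Wnt3a and Wnt1 had no reads.

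Per kilobase of exon, the summed level of the ligands was 548 ± 36.3 in Tumor and 1334 ± 52.1 normalized counts per kb in WT (SD, n = 3 each). Wnt7a made up 29.4% ± 3.59 of that sum in Tumor and 66.3% ± 0.666 in WT. Wnt4 made up 31.5% ± 3.16 in Tumor and 2.75% ± 0.309 in WT, so the level of Wnt4 per length was near that of Wnt7a in Tumor and far under it in WT. Markers of other cells that line or cross the cerebellum were lower as well. The 10 choroid plexus markers, 9 of them called lower, summed to 7162 to 40281 in Tumor and 138009 to 238143 in WT. The 10 meningeal fibroblast markers, 6 called lower and 2 higher, summed to 15399 to 18086 in Tumor and 21709 to 27045 in WT. No marker of either list was at 0 in all libraries, and their part in the lower ligand levels was not tested.

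Frizzled receptors and LRP co-receptors were more often higher. Of 12, all tested, 7 (58.3%, against 30.6% of all genes) were called higher, 3 (25%, against 31.5%) lower, and 2 did not pass the test, and the median log2 fold change was 0.59, against -0.02 over all genes. Fzd2 (chr11:102604396-102608058), a receptor used in both branches of the pathway, had 1988, 2094 and 1439 normalized counts in Tumor libraries 1 to 3, against 126, 84.4 and 104 in WT libraries 1 to 3. No Tumor library came near a WT library, and the log2 fold change was 4.12 ± 0.19 (17.4-fold, adjusted p = 8.99e-08). Fzd10 (chr5:128600844-128604093) had 463, 551 and 321 normalized counts in Tumor libraries 1 to 3, against 53.6, 64.2 and 77.0 in WT libraries 1 to 3. It was 6.67-fold higher without overlap (log2 fold change 2.74 ± 0.25, adjusted p = 6.64e-06).

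The co-receptor Lrp5 (chr19:3584828-3686564) had 953, 1357 and 1004 normalized counts in Tumor libraries 1 to 3, against 257, 257 and 340 in WT libraries 1 to 3. Its log2 fold change was 1.95 ± 0.17, with an adjusted p of 6.07e-06. Lrp6 (chr6:134446476-134566965), the other co-receptor of the canonical branch, had 5182, 5651 and 5513 normalized counts in Tumor libraries 1 to 3, against 4480, 4819 and 4447 in WT libraries 1 to 3. The groups did not overlap here either, but the difference was small, at a log2 fold change of 0.25 ± 0.08 (adjusted p = 0.0181). The Lrp6 call was lost under upper-quartile scaling (0.141) and without WT library 1 (0.0731) or WT library 3 (0.0743).

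Fzd7, a receptor of stem and progenitor cells in many tissues, averaged 8017 ± 1038 in Tumor and 3563 ± 68.2 in WT, a log2 fold change of 1.16 ± 0.10. Fzd3, a receptor of axon guidance and planar cell polarity, rose by 1.43 ± 0.13 on the log2 scale, and Fzd9 by 0.94 ± 0.23. Fzd4, the receptor through which Norrin acts on brain and retinal vessels, was lower, at 230 ± 25.5 in Tumor and 720 ± 119 in WT (log2 fold change -1.63 ± 0.16, adjusted p = 1.32e-05). Fzd6, a polarity receptor known from hair patterning, and Fzd8 were lower at log2 fold changes of -0.94 ± 0.15 and -1.14 ± 0.29. Beside Fzd4, the 10 endothelial markers, 9 of them called lower, summed to 5985 to 10546 in Tumor and 17907 to 21030 in WT, and none was at 0 in all libraries. Their part in the Fzd4 result was not tested. Fzd1 and Fzd5 did not pass the test, with 95% intervals of -0.59 to 0.03 and -0.88 to 0.18, and Fzd1 was called lower once Tumor library 2 was left out (log2 fold change -0.42, adjusted p = 0.012).

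Per kilobase, the receptors summed to 3959 ± 446 in Tumor and 2345 ± 88.3 normalized counts per kb in WT (SD, n = 3 each). Fzd7 held the largest share in both groups, 44.6% ± 1.32 in Tumor and 33.5% ± 0.654 in WT. Fzd2 made up 12.6% ± 1.69 in Tumor and 1.23% ± 0.282 in WT, while Fzd1 made up 15.1% ± 2.17 in Tumor and 30.7% ± 1.27 in WT.

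**Figure D2:**
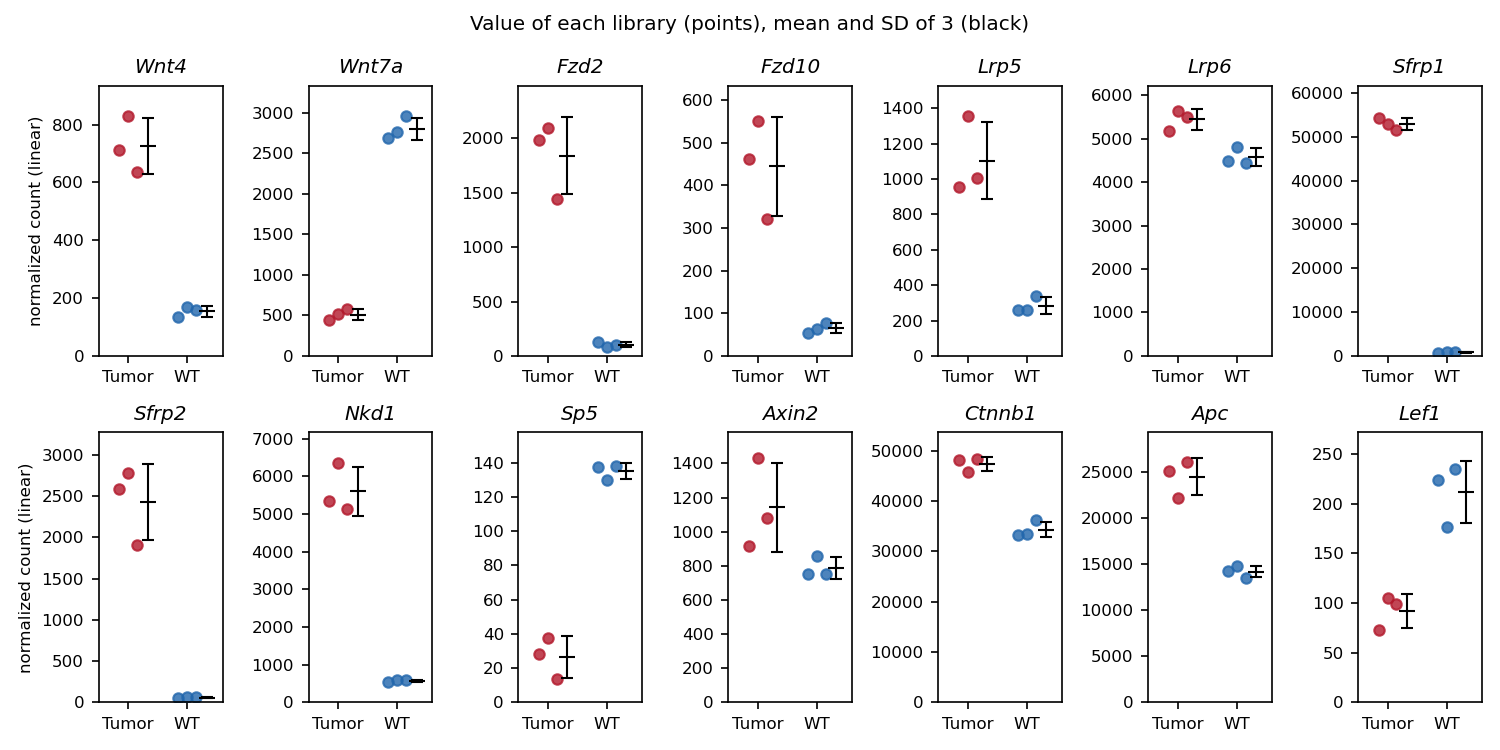
Normalized counts (linear y axis from 0, a scale of its own per gene) of 14 members in each of 3 Tumor and 3 WT libraries as points, with the mean and SD in black. The groups do not overlap for any of the 14, and the gap runs from Sfrp1 at 51593 or more in Tumor against 904 or less in WT, to Axin2, where the lowest Tumor library (918) is near the highest WT library (860).

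The secreted inhibitors held the largest rises of the module. Of the 9 genes, 7 were tested. Of these 7, 2 (28.6%, against 30.6% of all genes) were called higher, both by at least 4-fold, against 7.95% of all genes at that size. A further 1 (14.3%, against 31.5%) was called lower, and 4 did not pass the test. Sfrp1 (chr8:23411502-23449632), a Frizzled-related decoy that binds Wnt proteins, had 54351, 52825 and 51593 normalized counts in Tumor libraries 1 to 3, against 612, 899 and 904 in WT libraries 1 to 3. It was 66.7-fold higher in Tumor, at a log2 fold change of 6.06 ± 0.14 (adjusted p = 1.37e-09). Its 3 Tumor libraries varied by 2.61% around their mean, the smallest coefficient of variation among the members in Tumor. Sfrp2 (chr3:83766321-83774316), its relative, had 2588, 2782 and 1905 normalized counts in Tumor libraries 1 to 3, against 53.6, 63.0 and 60.9 in WT libraries 1 to 3, which is a log2 fold change of 5.32 ± 0.17 (39.9-fold, adjusted p = 9.53e-09). Neither gene had a Tumor library near a WT library.

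The remaining inhibitors did not share this rise. Sfrp5 averaged 11.8 ± 7.93 in Tumor and 36.3 ± 11.2 in WT, on 44 reads over the Tumor libraries and 97 over the WT libraries, and was called lower (log2 fold change -1.66 ± 0.51, adjusted p = 0.0166), but lost the call without Tumor library 2 (0.0556), WT library 2 (0.0642) or WT library 3 (0.0651). Dkk3, a divergent member of the Dickkopf family, averaged 1124 ± 122 in Tumor and 922 ± 64.7 in WT. Its Tumor libraries all lay above the WT libraries, its adjusted p was 0.0531 (log2 fold change 0.28 ± 0.11), and it passed the threshold under 5 of the alternatives, among them without Tumor library 3 (0.0338). Wif1, another secreted Wnt-binding protein, averaged 295 ± 44.5 in Tumor and 274 ± 34.9 in WT (95% interval of the log2 fold change -0.29 to 0.50). Sfrp4 and Dkk2 did not pass the test, with intervals of -0.11 to 0.93 and -0.39 to 1.23.

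Per kilobase, the secreted inhibitors summed to 13748 ± 499 in Tumor and 659.6 ± 45.2 normalized counts per kb in WT (SD, n = 3 each). Sfrp1 made up 88.1% ± 1.38 of the sum in Tumor and 27.7% ± 4.13 in WT. Dkk3 made up 2.43% ± 0.237 in Tumor and 41.6% ± 0.711 in WT, where its share was the largest, and Wif1 0.888% ± 0.161 in Tumor and 17.2% ± 3.45 in WT. The sum for the inhibitors was above that of the ligands in Tumor and under it in WT, on this scale of counts per kb.

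**Figure D3:**
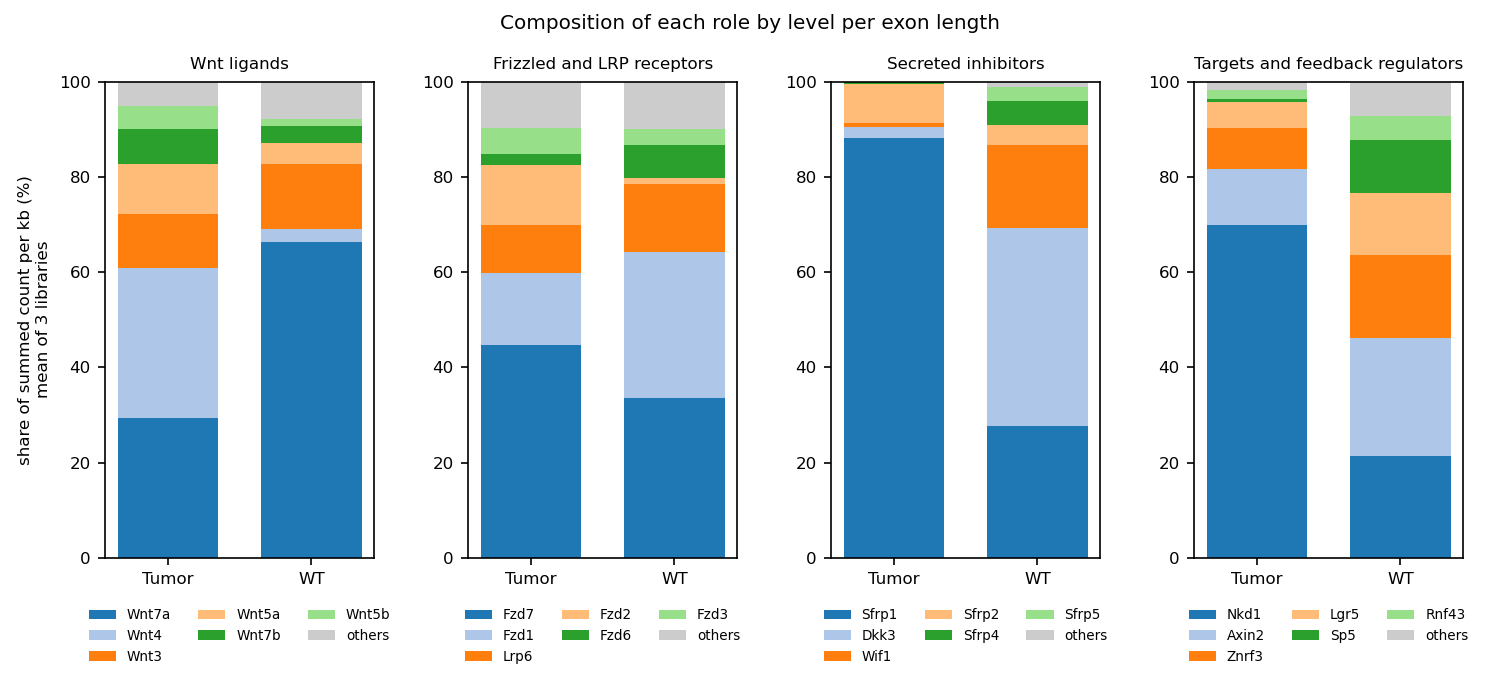
Share of each gene in the summed normalized count per kb of exon of its role (y axis, %, mean of 3 libraries), Tumor beside WT, for the ligands, receptors, secreted inhibitors and targets. Wnt4 holds 31.5% in Tumor and 2.75% in WT, Sfrp1 holds 88.1% in Tumor and 27.7% in WT, and Nkd1 70.0% in Tumor and 21.4% in WT.

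Of the 5 intracellular core components, 3 (60%, against 30.6% of all genes) were called higher, 1 (20%, against 31.5%) lower and 1 did not pass the test, and none reached 4-fold. Ctnnb1 (chr9:120929216-120960507), which encodes beta-catenin, had 48150, 45876 and 48391 normalized counts in Tumor libraries 1 to 3, against 33364, 33551 and 36159 in WT libraries 1 to 3. The groups did not overlap, and the log2 fold change was 0.47 ± 0.08 (1.38-fold, adjusted p = 8.21e-04). Transcript levels say nothing of the amount or the place of the protein, on which the pathway acts. Apc (chr18:34220924-34322189), the scaffold of the destruction complex, had 25131, 22273 and 26147 normalized counts in Tumor libraries 1 to 3, against 14308, 14793 and 13545 in WT libraries 1 to 3. It too rose without overlap, by 0.78 ± 0.09 on the log2 scale (adjusted p = 3.23e-05). Axin1, the other scaffold, averaged 2789 ± 225 in Tumor and 1425 ± 62.0 in WT, a log2 fold change of 0.97 ± 0.09 with an adjusted p of 1.01e-05.

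Lef1 (chr3:131110471-131224356), a DNA-binding partner of beta-catenin, had 72.9, 105 and 99.4 normalized counts in Tumor libraries 1 to 3, against 223, 176 and 235 in WT libraries 1 to 3. It was lower in every Tumor library, and the log2 fold change was -1.19 ± 0.23 (adjusted p = 0.00122). Tcf7, a second factor of that family, averaged 109 ± 25.3 in Tumor and 149 ± 30.1 in WT and did not pass the test (adjusted p = 0.145). The sources used here do not say whether strand entered the counting, and exons of Lef1 overlap 1208 bases of the antisense gene Gm43352, those of Ctnnb1 759 bases of Ulk4, those of Sfrp2 347 bases of Gm26771, those of Notum 708 bases of Notumos and those of Axin2 209 bases of Gm11670, so reads from these partners cannot be told apart. The same holds for Fzd5 with Gm38058 (1233 bases), Wnt11 with Gm8398 (364 bases), Wnt5a with Gm2670 (358 bases), Wnt7b with AU022754 (324 bases), Notum with Myadml2os (210 bases) and Fzd6 with Gm26704 (152 bases).

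Targets and feedback regulators split. Of 8, 4 (50%, against 30.6% of all genes) were called higher, 2 (25%, against 31.5%) lower and 2 did not pass the test, with a median log2 fold change of 0.39, against -0.02 over all genes. Nkd1 (chr8:88521344-88594887), which binds Dishevelled and damps the pathway, had 5355, 6343 and 5126 normalized counts in Tumor libraries 1 to 3, against 529, 583 and 592 in WT libraries 1 to 3. The rise was 9.83-fold without overlap (log2 fold change 3.30 ± 0.10, adjusted p = 8.9e-09). Sp5 (chr2:70474923-70477729), a zinc finger factor that is a direct beta-catenin target and whose promoter with a TCF/LEF motif is shown above, moved the other way. It had 28.2, 37.8 and 13.8 normalized counts in Tumor libraries 1 to 3, against 137, 130 and 138 in WT libraries 1 to 3. No Tumor library reached the WT range, and the log2 fold change was -2.41 ± 0.37 (adjusted p = 3.01e-04). Notum, a secreted enzyme that strips the lipid from Wnt proteins, was also lower, at 16.6 ± 3.90 in Tumor and 54.5 ± 9.38 in WT (log2 fold change -1.67 ± 0.35, adjusted p = 0.00233).

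Axin2 (chr11:108920349-108950783), the target most used as a readout of canonical signalling, changed little. It had 918, 1429 and 1082 normalized counts in Tumor libraries 1 to 3, against 755, 860 and 750 in WT libraries 1 to 3. The groups did not overlap, and the log2 fold change was 0.51 ± 0.16, with an adjusted p of 0.0169 that rose to 0.0608 without WT library 1 and 0.0635 without WT library 3. Znrf3, a ubiquitin ligase that removes Frizzled from the cell surface, rose by 0.55 ± 0.14 on the log2 scale (adjusted p = 0.006). Lgr5, a receptor for R-spondins, rose by 0.35 ± 0.12 on that scale (adjusted p = 0.0252), a call lost without Tumor library 1 (0.0795) or WT library 1 (0.109) and under upper-quartile scaling (0.105). Nkd2, the relative of Nkd1, averaged 122 ± 6.79 in Tumor and 90.8 ± 18.1 in WT and did not pass the test (adjusted p = 0.139). Rnf43, the relative of Znrf3, had 100, 407 and 132 normalized counts in Tumor libraries 1 to 3, against 214, 156 and 217 in WT libraries 1 to 3. Tumor library 2 stood above all 5 other libraries, and without it Rnf43 was called lower (log2 fold change -0.75, adjusted p = 0.0266).

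Tumor library 2 was the highest of the 3 Tumor libraries for 24 (60%) of the 40 tested members that averaged at least 10 normalized counts in Tumor, against 33.2% of 17234 such genes. For the receptors this was 9 of 12 and for the targets 6 of 8. The order of the Tumor libraries went with base composition over all genes: library 2 was highest for 65.6% of the genes in the highest of 4 equal groups by transcript GC content and for 11.3% in the lowest. Of the 40 members, 17 fell in the highest GC group, and library 2 was highest for 11 of these (64.7%, against 65.6% of all genes there). In the third group it was highest for 9 of 13 members (69.2%, against 37.8%). In the second group it was highest for 3 of 6 (50%, against 18.4%), and in the lowest for 1 of 4 (25%, against 11.3%). The part of base composition in the spread of the members among Tumor libraries was not tested.

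**Figure D4:**
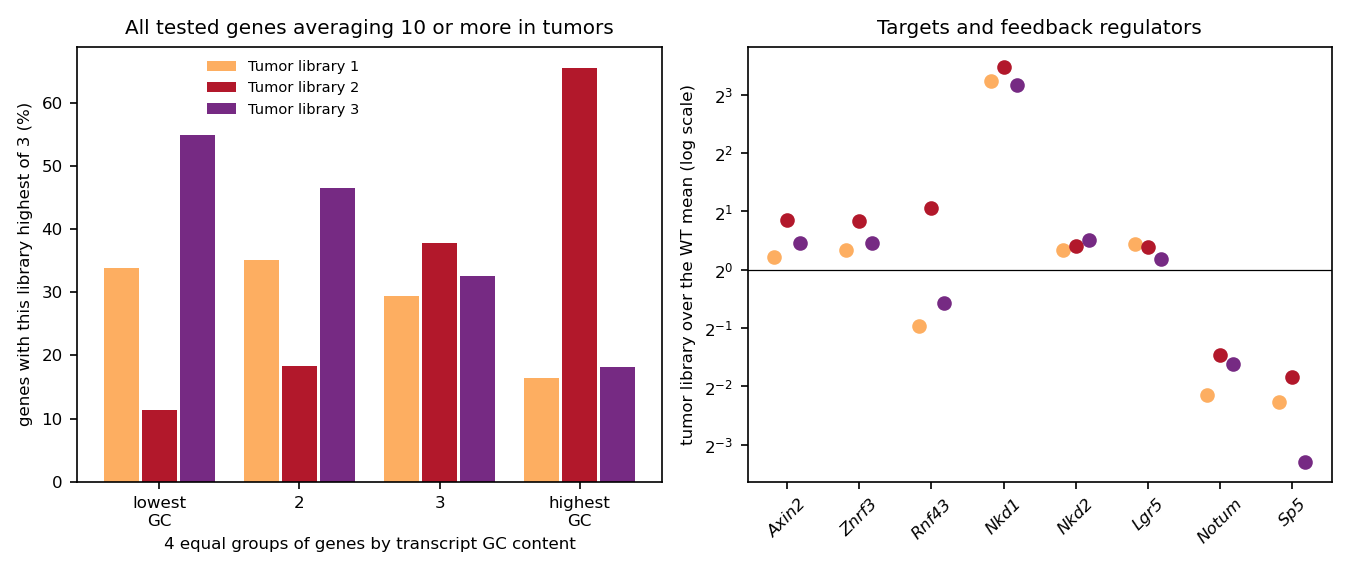
Left, share of genes (%) for which each Tumor library is the highest of 3, in 4 equal groups by transcript GC content, over genes averaging at least 10 normalized counts in Tumor. Right, each Tumor library over the WT mean (log axis, base 2) for the 8 targets and feedback regulators, where library 2 is above the others for 6 of 8 and by the widest margin for Rnf43.

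The authors' deposited table of selected genes lists 2654 genes, beside 43629 in their full table, and 11 of the 53 members. The smallest log2 change it lists in either direction is 1.62, so members with smaller changes could not appear there. In the authors' deposited table Sfrp1 stands at a log2 fold change of 5.90, Sfrp2 at 5.06, Fzd2 at 4.12, Nkd1 at 3.33, Fzd10 at 2.71 and Wnt4 at 2.04. On the lower side the authors' deposited table has Sp5 at -2.34, Wnt7a at -2.40, Wnt9b at -3.10, Wnt6 at -3.20 and Wnt16 at -3.67.

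Genes around the module were followed in 8 further lists holding 103 tested genes, of which 41 (39.8%, against 30.6% of all genes) were called higher, 26 (25.2%, against 31.5%) lower and 36 did not pass the test. The counts by list below are to be read against the same shares of all genes, and the medians against -0.02. The lists were chosen with earlier results of these data known, so their shares only describe the genes listed. R-spondins are secreted proteins that raise Wnt response by binding Lgr receptors. On the list of R-spondins with Lgr4 and Lgr6, 4 of the 5 genes tested were called lower and 1 did not pass the test, with a median log2 fold change of -2.57. The gene that did not pass, Rspo1, averaged 28.6 ± 6.41 in Tumor and 14.3 ± 3.59 in WT, with every Tumor library above every WT library (log2 fold change 0.96 ± 0.40, adjusted p = 0.0597), and the related receptor Lgr5, a member described above, was called higher. Rspo3 averaged 97.8 ± 30.3 in Tumor and 583 ± 73.7 in WT (log2 fold change -2.60 ± 0.23), Rspo2 21.7 ± 10 in Tumor and 165 ± 25.8 in WT (-2.99 ± 0.40), Lgr6 102 ± 36.3 in Tumor and 590.3 ± 36.9 in WT (-2.57 ± 0.24), and Lgr4 1578 ± 132 in Tumor and 3869 ± 126 in WT (-1.30 ± 0.09). Among the 6 genes of ligand maturation and secretion 1 was higher and 2 lower, with a median of -0.15. Porcn, the enzyme that attaches the lipid to Wnt proteins, had a log2 fold change of -1.57 ± 0.13, Trabd2b, a protease that cuts Wnt proteins, -2.99 ± 0.20, and Vps26a, part of the retromer that recycles the Wnt carrier, 0.34 ± 0.09.

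Further extracellular inhibitors were mostly higher, 8 of 13 against 4 lower, with a median of 0.95. Draxin, an axon guidance protein that blocks Lrp6, averaged 31176 ± 5551 in Tumor and 70.9 ± 34.6 in WT, and its log2 fold change of 8.87 ± 0.30 exceeded that of Sfrp1. Shisa2, which holds Frizzled back in the cell, rose by 4.26 ± 0.13 on the log2 scale. Sostdc1 and Sost, which block Lrp5 and Lrp6, were lower at log2 fold changes of -3.99 ± 0.92 and -2.41 ± 0.26. Sostdc1 is also on the choroid plexus list, whose sum was given above. Of 9 co-receptors and alternative receptors 5 were higher and 1 lower, with a median of 0.69. Ror2, a tyrosine kinase receptor for Wnt5a, averaged 492 ± 124 in Tumor and 43.0 ± 5.36 in WT (log2 fold change 3.46 ± 0.23), and the glypican Gpc3 rose by 2.89 ± 0.22 on the log2 scale. Lrp4 rose by 0.69 ± 0.11, and Ror1 was lower at a log2 fold change of -0.40 ± 0.13.

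Values for the genes that act inside the cell are log2 fold changes with their standard errors. Of 24 Dishevelled and destruction complex genes 9 were higher, 6 lower and 9 did not pass the test, with a median of 0.13. Csnk1e, a kinase of Dishevelled, rose by 1.74 ± 0.09 and Dvl2 by 1.32 ± 0.14, while the Apc-binding Amer3 and the Dishevelled antagonist Dact3 were lower at -2.33 ± 0.16 and -0.79 ± 0.11. Of 16 nuclear partners of beta-catenin 9 were higher and 1 lower, with a median of 0.38. The co-repressors Tle1 and Tle4 rose by 2.61 ± 0.10 and 0.79 ± 0.09, and their relative Tle2 was lower at -1.63 ± 0.25. Pygo1, which links beta-catenin complexes to chromatin through Bcl9, rose by 0.24 ± 0.08 (adjusted p = 0.0301). Of 14 planar cell polarity genes 5 were higher and 3 lower, with a median of 0.21. The core membrane proteins Celsr1 and Vangl2 rose by 3.50 ± 0.28 and 1.85 ± 0.12, and the cytoplasmic core proteins Prickle1 and Prickle2 were lower at -1.60 ± 0.15 and -1.39 ± 0.15.

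Of 16 further transcriptional targets 4 were higher, 5 lower and 7 did not pass the test, with a median of -0.12. Myc averaged 1725 ± 315 in Tumor and 66.9 ± 3.42 in WT (log2 fold change 4.65 ± 0.17), and Ccnd1, the cyclin of the early cell cycle, 25700 ± 2129 in Tumor and 2306 ± 139 in WT (3.48 ± 0.09). Both genes are targets of other growth pathways too. Wisp1, a secreted matricellular protein, was lower at a log2 fold change of -2.78 ± 0.33, and En2, a transcription factor of the midbrain-hindbrain region, at -1.29 ± 0.08.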

How the data were processed

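Total RNA was extracted with TRIzol and a column kit and made into TruSeq RNA libraries, per the labels' protocols, and the titles gave the groups and numbers. FastQC, Bowtie2 (2.2.4), featureCounts and edgeR are listed in the submitters' processing notes, with mm10 as the build. Annotation release, counting options and strand setting: not given in the sources used here. Each signal in the authors' deposited table of 43629 genes is a read count divided by a size factor, as 100% of the values are whole multiples of the value of 1 read to within 1e-06 of a read. The deposited fold and ratio columns, p-values and FDR entered no test made here; the log2 fold changes of a shorter list, deposited by the authors, are quoted as such. Because the values are normalized, limma 3.58.1 (R 4.3.3, mean-variance trend) was run on log2(value + 1), which understates changes of low genes; 22117 genes exceeded a value of 1 in 3 or more libraries and were tested; errors are limma's standard errors. edgeR 4.0.16 and DESeq2 1.42.0 on the recovered reads, other pseudocounts, filters and scalings, a replicate block and leaving out each library were alternatives. The script was checked on simulated data. Replicate pairs differed beyond sampling noise (chi-square per degree of freedom 41.6 to 67.6 within Tumor and 10.9 to 13.7 within WT). Same-numbered libraries did not deviate together (correlations 0.022, -0.051 and -0.007).

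Intervals of log2 fold changes are limma's and rest on the spread between libraries; floors cover counting error only. Gene positions are those the authors deposited. Levels per kb use merged exons of GENCODE M21 (GRCm38, the same build as mm10), as do exon overlaps and transcript GC content. That annotation may differ from the one behind the counts. Members, role groups, gene lists and motifs were chosen with earlier results of these data known. Values per library are given for called members changed at least 4-fold that average at least 100 in the higher group, and for Ctnnb1, Axin2, Lef1, Apc, Lrp5 and Lrp6; Rnf43 was added after its values were seen. From each further list the called genes with the 2 largest and 2 smallest log2 fold changes among those averaging at least 100 in the higher group are named.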

Additional observations from a re-analysis of the deposited data

How the results depend on the processing

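Each result was recomputed under 19 alternatives, and none reversed a called direction. With a replicate block 17 members were called higher and 17 lower, Fzd1 being the addition (adjusted p = 0.039), and no other member's call changed; the numbers do not pair the libraries. A required change of at least 2-fold left 9 members higher, 1 target, no core component, 3 Dishevelled and destruction complex genes and 1 nuclear partner higher, and 2 Dishevelled and destruction complex genes, 3 further targets and no co-receptor lower; no maturation gene was higher. At an adjusted p under 0.01, 2 targets were higher, and no secreted inhibitor and no co-receptor was lower (0 in each case). A value over 10 in 3 libraries left fewer genes to test and called 5 ligands lower and 1 R-spondin list gene higher. Wnt2, Wnt10a, Wnt10b and Wnt11, lower in the main test, did not exceed 10 in 3 libraries and dropped out of the test there. A pseudocount of 5 and scaling to library totals each called 1 R-spondin list gene higher. Library totals left 0 co-receptors lower and 2 maturation genes higher; upper-quartile scaling left 0 maturation genes higher and 2 nuclear partners lower. Upper-quartile scaling moved the median of all genes to -0.127, against which changes are to be read, and the calls to 6081 higher and 7618 lower. The counts at 2-fold and at 0.01 follow from the stricter rules, and the ligand count at a value over 10 from that filter. For the other counts the cause was not tested.

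Leaving out each library in turn gave 14 to 18 members higher and 13 to 16 lower, 2 to 4 targets higher, 0 to 1 secreted inhibitors lower, 0 to 2 co-receptors lower, 1 to 2 nuclear partners lower, 0 to 1 R-spondin list genes higher and 1 to 2 maturation genes higher. Ligands called lower ranged from 6 to 8. Depth limits the ligands most: Wnt2, Wnt8a, Wnt8b, Wnt10a, Wnt10b and Wnt11 rest on at most 25 reads a group, and differences at that depth are not firmly measured. DESeq2 did not call Wnt10b (adjusted p = 0.0741) or Wnt11 (0.0546) and gave no adjusted p for Wnt2, edgeR did not call Wnt10b (0.0536), and a pseudocount of 5 lost Wnt2 (0.0686).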
